A study of Mus musculus with 6 samples.

Results

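Fibronectin, the thrombospondins and the other matricellular genes described here are 10 genes for proteins of the extracellular matrix, Fn1, Eln, Thbs1, Thbs2, Spp1, Postn, Tnc, Sparc, Ctgf and Cyr61. They were chosen by name, and every non-control probe carrying 1 of these names was taken, which gave 18 probes for 10 of the 29742 names on the array. The cells were primary mouse embryonic fibroblasts, hybridised to 6 two-colour Agilent arrays in 3 comparisons of 2 arrays. In one, wild type cells that had recovered for 24 h from 1 h in 0.5 mM H2O2 were set against untreated wild type cells, mutant cells were treated and compared in the same way, and untreated mutant cells were set against untreated wild type cells. The mutant, labelled WS for Werner syndrome, carries an in-frame deletion of part of the helicase domain of Wrn on both alleles. Wild type and mutant embryos came from a mixed 129/Sv and Black Swiss background and were taken at day 15 by the labels. The labels call the 2 arrays of a comparison biological replicates, without saying which embryos each culture held, so p-values measure the spread between these arrays.

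Matricellular proteins are secreted into the matrix but mostly regulate how cells attach to it, move and receive growth factor signals rather than bearing load. Fibronectin, by contrast, is assembled into fibrils that integrins pull on, and elastin forms the core of elastic fibres. Several of the genes, Ctgf and Cyr61 above all, are well known as targets of TGF-beta signalling and of the YAP and TAZ coactivators, which bind DNA through TEAD factors.

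The member spots were bright enough to be measured in most cases. Of 108 member spots, Cy3 was well above background on 106 and Cy5 on 87, and none was saturated. The extraction software had marked 26 of the 108 as outliers, between 1 and 7 per array, and up to 22.6% of all non-control spots of an array. Marked spots were left out of the tests but their ratios are printed and named as marked, and a fitted value that rests on 1 array is named too, since its error then comes from the spread pooled over the other arrays. Over all probes the log2 ratios of the 2 arrays of a comparison correlated with r = 0.778 in treated wild type cells, r = 0.624 in treated mutant cells and r = 0.541 between genotypes. No array had the dyes exchanged, so a dye preference of a probe enters every ratio. A lower value in these cultures can mean fewer cells that express a gene or less RNA per cell, which cannot be told apart.

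The direction of the untreated comparison has 2 versions. The sample labels put wild type RNA in Cy5, whereas the gene list that the study made from these arrays gives Cy5 over Cy3 as mutant over wild type. The second version is used for every value here, and by the labels every sign of this comparison would turn. The Cy3 channels of the 4 treatment arrays, whose labels are not in conflict, also compare untreated mutant with untreated wild type cells. Of 835 probes called on the ratio arrays by the study's thresholds, 98.7% had the same sign there, and so did 9 of the 10 called member probes.

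In the fit of all 6 arrays, more member probes were called between genotypes than between treated and untreated cells, whereas with each comparison's own arrays the counts were 5 between genotypes, 6 in treated wild type and 5 in treated mutant cells. The shares of all probes called, in the same order, were 19.9%, 0.836% and 0% in the fit of all 6 arrays. On own arrays they were 3.74%, 26.5% and 12.1%, so the order of the member counts is not particular to the members. In untreated mutant cells Thbs1, Ctgf, Tnc, Cyr61 and Spp1 were lower and Thbs2 and Sparc were higher, each by limma's adjusted p under 0.05. In all, 10 of the 18 member probes were called for 7 of the 10 genes, 7 probes lower and 3 higher, while 19.9% of all probes were called, 9.76% lower and 10.2% higher. At the study's own thresholds for this comparison, an adjusted p under 0.005 and a mean log2 intensity over 6, 3 member probes were called, for Thbs1, Tnc and Ctgf, against 2.07% of all probes. The median over the 18 member probes was -0.41 on the log2 scale, and that over all probes was 0.01. Of the 10 called probes, 4 rested on 1 array, and 10 were called with the marked spots kept as well, where 22.4% of all probes were called. Fitted on the 2 genotype arrays alone, 5 member probes were called, 2 of Thbs1 and those of Tnc (A_51_P291438), Ctgf and Cyr61, and 3.74% of all probes, so Thbs2, Spp1, both Sparc probes and Tnc A_52_P278035 were not. The 2 Thbs1 probes rested on 1 array there. Of the lower probes called in the fit of all 6 arrays, Tnc A_52_P278035 leaned on a spot with a net Cy5 intensity of 0.067.

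**Figure D1:**
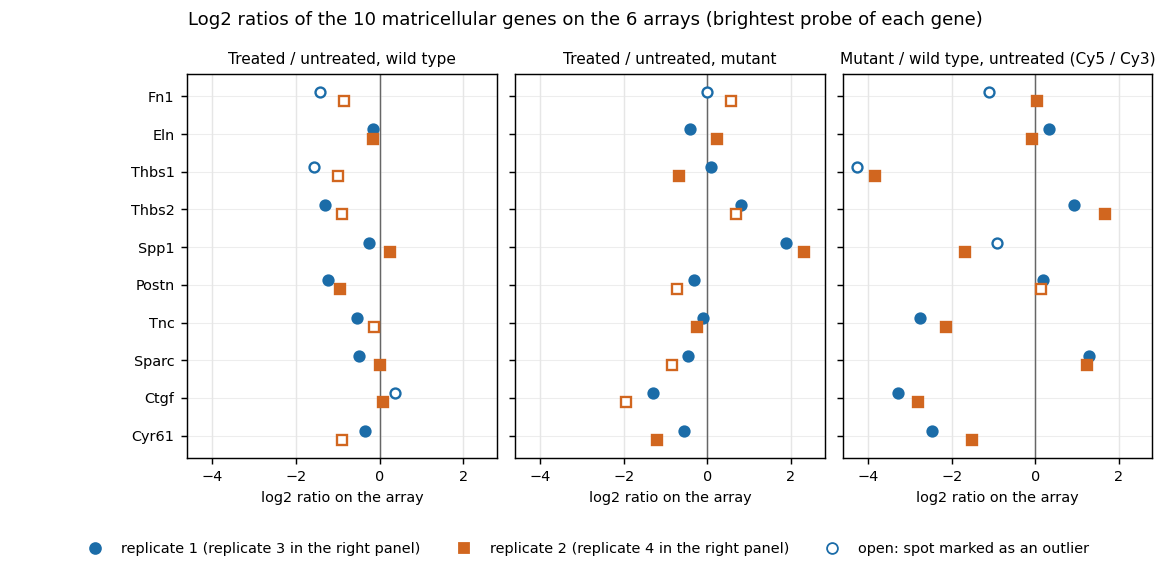
Log2 ratio (horizontal axis) of the brightest probe of each gene on each array, in treated over untreated wild type cells, treated over untreated mutant cells and untreated mutant over wild type cells; circles and squares are the 2 arrays of a comparison and open symbols are spots marked as outliers. Thbs1, Tnc, Ctgf and Cyr61 lie left of zero on both genotype arrays, and Spp1 lies right of zero on both arrays of treated mutant cells.

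H2O2 lowered 1 member probe by this test, a probe of Thbs1 in wild type cells. It was 1 of 15 tested, with 0.836% of all probes called, and the median over the 15 was -0.35 against -0.01 over all probes. At an unadjusted p under 0.05, 5 of the 15 were called, all lower (Fn1, Thbs1, Thbs2, Postn and Sparc), with 19.9% of all probes. In mutant cells limma called none of 17 member probes and 0% of all probes. At an unadjusted p under 0.05 it called 4, Spp1 higher and Ctgf, Cyr61 and Sparc lower, with 12% of all probes. No probe on the array passed the study's thresholds for treated cells in this fit, in either genotype. Its smallest limma adjusted p was 0.0151 for the wild type and 0.118 for the mutant. The study itself listed many altered genes for each genotype, although the legends of its lists state a looser adjusted p. How many probes pass its thresholds on own arrays is not given here. The counts of called probes depended on the genotype arrays in the shared fit. When a comparison's 2 arrays were fitted without the others, 6 of 15 member probes were called in wild type cells, where 26.5% of all probes were called. For mutant cells 5 of 17 were called, with 12.1% of all probes. Of the member probes called on own arrays, Fn1 (A_52_P11817) and Thbs2 in wild type cells rested on 1 array. So did Thbs2, Sparc (A_52_P101852) and Ctgf in mutant cells, and the error of such probes comes from other probes. Leaving out either genotype array alone, replicate 3 or replicate 4, gave the same 6 and 5, and leaving out any 1 of the 4 treatment arrays gave 0 in wild type cells. With the marked spots kept, 2 of 18 member probes were called in wild type cells (2.39% of all probes), a Thbs1 probe and Postn, and 0 in mutant cells (0% of all probes).

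Fibronectin links cells to the matrix through its RGD-binding integrins, and the study used it as 1 of its RT-PCR targets. The study reported Fn1 lower in treated wild type cells both by array and by RT-PCR. The primers designed for it, 20 bases each, are shown because they mark the part of the transcript that the study amplified, and were read from the study's primer list 5′ to 3′.
Fn1 forward: aatggaaaaggggaatggac
Fn1 reverse: accatcatccagccttggta

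Fn1 (NM_010233) has 3 probes on the array. A_52_P299974, the only Fn1 probe with no marked spot, had log2 ratios of -0.88 and -0.42 in treated wild type cells and of 0.01 and 0.73 in treated mutant cells. The wild type arrays were both below 0 and the mutant arrays both above. The fitted values were -0.65 (SE 0.26, n = 2, limma adjusted p = 0.222) and 0.37 (SE 0.26, n = 2, limma adjusted p = 0.617). Fitted on each comparison's own 2 arrays, the limma adjusted p was 0.00604 in wild type and 0.188 in mutant cells. The brightest Fn1 probe, A_51_P100856, was marked on every array except genotype replicate 4. Its marked ratios were -1.42 and -0.84 in wild type and -0.01 and 0.56 in mutant cells, in the same order as those of A_52_P299974. With marked spots kept, its fitted change was -1.13 (SE 0.30, limma adjusted p = 0.0887) in wild type cells. In mutant cells it was 0.28 (SE 0.30, limma adjusted p = 0.752). A_52_P11817 gave -1.50 and, on a marked spot, -0.59 in wild type cells, and -0.23 and 0.28 in mutant cells.

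Between untreated genotypes the arrays of Fn1 did not agree. Genotype replicate 3 gave -1.11 (marked), -2.38 and -0.44 for A_51_P100856, A_52_P11817 and A_52_P299974, and replicate 4 gave 0.04, 0.01 and 0.30. None of the 3 probes was called, with limma adjusted p of 0.931, 0.156 and 0.871. On the Cy3 channels with the marked spots kept, the mutant minus wild type differences were 0.31, -0.25 and 0.64, each within 2 standard errors of 0.

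Eln encodes elastin and has 1 probe, A_52_P609972 (NM_007925). Its ratios were -0.16 and -0.16 in treated wild type cells, -0.43 and 0.23 in treated mutant cells and 0.33 and -0.09 between genotypes. The ratios of mutant cells and those between genotypes lay on both sides of 0. The fitted genotype difference of 0.12 had a 95% interval from -0.37 to 0.61, so a change of 1 on the log2 scale in either direction lies outside it.

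Thrombospondin 1, which activates latent TGF-beta and inhibits the growth of blood vessels, showed the largest genotype difference of the 10 genes by its brightest probe. A_52_P363951 (NM_011580) had log2 ratios of -4.26 (marked) and -3.83 on the genotype arrays. The fit used replicate 4 alone and gave -3.83 (SE 0.35, limma adjusted p = 0.0037), a 14.2-fold lower value in the mutant. Net Cy3 intensities of untreated cells on the treatment arrays were 11072 and 12411 in wild type and 184 and 352 in mutant cells. The median net Cy3 intensity of an array was between 177 and 257 on the 2 wild type arrays and between 97.0 and 101 on the mutant arrays. After normalization the Cy3 difference was -3.89 with the marked spots kept (SE 0.43), both wild type spots being marked. Of 16 alternatives for the call on the genotype arrays, other probes of the gene among them, 2 lost it and 1 changed its sign.

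A second Thbs1 probe, A_52_P337092, gave -4.05 (marked) and -2.62 between genotypes. In mutant cells its Cy5 was not well above background on either genotype array, so the difference is a bound. Over both arrays, the marked spot included, it was at least 8.03-fold lower in the mutant (limma adjusted p = 0.00166 with marked spots kept). On replicate 4 alone the measured difference was -2.62 (SE 0.35, limma adjusted p = 0.006), less than this bound, which therefore leans on the marked spot. The bound is the wild type mean against the higher of the probe's own value and the lowest level that stood well above background on each array. In Cy3 the probe differed by -3.73 (SE 0.37, limma adjusted p = 0.000964).

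The remaining Thbs1 probes did not show this difference. A_52_P337086, which carries the same matched mRNA accessions as A_52_P337092 in the array files, had -1.93 (marked) and 0.16 between genotypes, and -0.17 on the Cy3 channels with marked spots kept. A_51_P293401, designed to a cDNA clone (AK089315), had 0.08 and -0.41, and its Cy5 was not well above background on either genotype array. So 2 of the 4 probes named Thbs1 were lower in the mutant in both measurements, and the brightest of the others was not. No probe sequence is in the files, and which part of the transcript each probe reads was not tested.

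**Figure D2:**
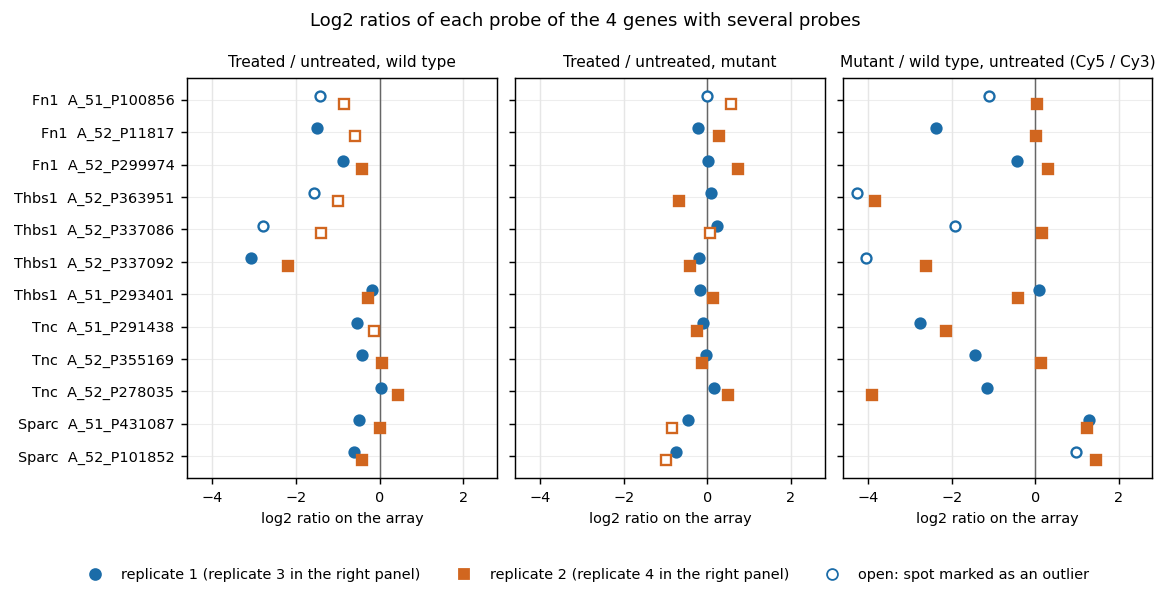
Log2 ratio (horizontal axis) of each probe of the 4 genes with more than 1 probe, in the same 3 comparisons and symbols as above, open symbols being marked spots. The Thbs1 probes A_52_P363951 and A_52_P337092 lie at -2.62 or lower on both genotype arrays while A_52_P337086 lies at -1.93 on one and at 0.16 on the other.

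After H2O2, Thbs1 was lower in wild type cells. A_52_P337092 had ratios of -3.08 and -2.20, neither marked, and the fitted change was -2.64 (SE 0.24, n = 2, limma adjusted p = 0.0364), a 6.23-fold fall. It was the member probe called in this comparison. Its mean log2 intensity was 5.97, under the study's limit of 6, so with the intensity filter it was not tested. Postn was then the 1 member probe called (limma adjusted p = 0.0491). A_52_P363951 gave -1.58 and -0.98 and A_52_P337086 gave -2.79 and -1.40, all on marked spots and all below 0. In mutant cells the ratios of these 3 probes lay between -0.69 and 0.24, and none of their tests reached an unadjusted p under 0.05. For A_52_P337092 the treated mutant cells were not well above background on either array.

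Thrombospondin 2, a close relative that shares much of the domain structure, moved otherwise. Thbs2 (A_51_P461877, NM_011581) had genotype ratios of 0.92 and 1.67, and was called higher in the mutant at 1.29 (SE 0.24, n = 2, limma adjusted p = 0.0228), or 2.45-fold. The call was lost on the genotype arrays alone (limma adjusted p = 0.0765), with the Feature Extraction ratios (0.157), with a replicate block (0.0504) and without replicate 1 or replicate 2 of the treated mutant arrays (0.0515 each). Its treated over untreated ratios were -1.30 and -0.90 (marked) in wild type cells and 0.81 and 0.69 (marked) in mutant cells. Both wild type arrays were thus below 0 and both mutant arrays above. Neither change was called, with limma adjusted p of 0.127 and 0.440, each fitted on 1 array. In normalized levels with marked spots kept, treated mutant cells (10.70 and 11.30) lay above treated wild type cells (7.79 and 7.37). The difference was 3.42 on the log2 scale (SE 0.44, limma adjusted p = 0.0134). Without the marked spots the same difference was 2.69, rested on 1 array of each genotype and was not called.

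The bases before the start of Thbs2 are shown with those of Cyr61, as a member higher and a member lower in the mutant. RefSeq windows of the assembly GRCm38.p6 were available for 6 of the 10 genes, in 9 entries, and the 250 bases before each start were searched on both strands for the TEAD motif CATTCC, which reads GGAATG on the other strand, for the AP-1 motif TGACTCA, which reads TGAGTCA there, and for the CArG box, which SRF binds. Of all 32851 windows of this length, 12.6% held the TEAD motif, 4.46% the AP-1 motif and 1.47% a CArG box. Of the member windows, 1 held a match, the TEAD motif of Cyr61, in capitals here.
Thbs2 (chr17:14694263-14694512, minus strand): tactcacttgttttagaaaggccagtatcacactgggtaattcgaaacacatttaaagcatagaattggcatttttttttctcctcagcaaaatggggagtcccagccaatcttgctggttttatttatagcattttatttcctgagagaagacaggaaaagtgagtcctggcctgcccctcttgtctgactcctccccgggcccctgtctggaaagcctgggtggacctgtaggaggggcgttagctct
Cyr61, Ccn1 in RefSeq (chr3:145649986-145650235, minus strand): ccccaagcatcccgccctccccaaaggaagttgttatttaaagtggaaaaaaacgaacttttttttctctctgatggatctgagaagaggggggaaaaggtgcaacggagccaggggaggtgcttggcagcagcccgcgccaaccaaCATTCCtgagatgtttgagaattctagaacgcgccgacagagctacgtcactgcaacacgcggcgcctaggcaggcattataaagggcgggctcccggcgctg

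Ctgf and Cyr61 are CCN proteins, small secreted proteins that bind integrins and heparan sulfate and promote adhesion and matrix production. Ctgf (A_51_P157042, NM_010217), renamed Ccn2, had genotype ratios of -3.28 and -2.82, neither marked, and was called lower in the mutant at -3.05 (SE 0.20, n = 2, limma adjusted p = 0.0019), or 8.28-fold. It was lower in Cy3 too, at -3.24, a value that rests on 1 unmarked array of each genotype. With the marked spots kept the Cy3 difference was -2.75 (SE 0.43, limma adjusted p = 0.00886). The Cy3 call made without the marked spots was lost in 4 of 7 alternatives. Net Cy3 intensities of untreated cells, before normalization, were 11559 (marked) and 9960 in wild type and 381 and 617 (marked) in mutant cells. The median net Cy3 intensity of these arrays was 177 and 257 in wild type and 101 and 97.0 in mutant cells.

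With H2O2, the Ctgf ratios were 0.36 (marked) and 0.09 in wild type cells and -1.30 and -1.96 (marked) in mutant cells. The fitted change was 0.09 in wild type cells (SE 0.29, limma adjusted p = 0.905, 1 array) and in mutant cells -1.30 (SE 0.29, unadjusted p = 0.00576, limma adjusted p = 0.267, 1 array). Normalized levels were 12.15 (marked) and 11.11 in treated wild type and 7.02 and 7.04 (marked) in treated mutant cells. Ctgf was the 1 member probe of 15 called between treated genotypes, with 0.37% of all probes called. Its difference of -4.63 rests on 1 unmarked array of each genotype, so its error comes from other probes. Ctgf was also called there with the marked spots kept, but 3 of 7 alternatives lost the call.

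Cyr61 (A_51_P252859, NM_010516) had genotype ratios of -2.47 and -1.52 and was called lower in the mutant at -1.99 (SE 0.28, n = 2, limma adjusted p = 0.00734), or 3.98-fold. Under 1 of 14 alternatives in processing this call was lost. Treated over untreated ratios were -0.35 and -0.90 (marked) in wild type cells and -0.56 and -1.20 in mutant cells, below 0 on all 4 arrays, although with median centring the wild type value was 0.19. Neither change was called, with limma adjusted p of 0.702 and 0.327. Of the 2 CCN genes, Ctgf thus had wild type ratios above 0 and Cyr61 below 0.

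Spp1 encodes osteopontin, a secreted phosphoprotein that binds integrins and CD44 and is made by bone cells and macrophages as well as fibroblasts. Its probe (A_51_P358765, NM_009263) had the largest rise of the members in treated mutant cells, with ratios of 1.88 and 2.31 and no marked spot. The fitted change was 2.10 (SE 0.21, n = 2), or 4.27-fold, with an unadjusted p of 4.81e-05 and a limma adjusted p of 0.118 in the fit of all 6 arrays, where no probe was called. On the 2 mutant arrays alone its limma adjusted p was 9.38e-08, and with a replicate block it was 0.677. In wild type cells the ratios were -0.26 and 0.24, on either side of 0.

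Between untreated genotypes Spp1 was lower in the mutant. The genotype ratios were -0.93 (marked) and -1.67, and the fit on replicate 4 gave -1.67 (SE 0.30, limma adjusted p = 0.0143), or 3.19-fold lower. The call was lost on the genotype arrays alone (limma adjusted p = 0.102), with median centring (0.0899) and with the Feature Extraction ratios (0.0505). Normalized log2 levels were 13.58 and 13.59 in untreated and 13.31 and 13.83 in treated wild type cells, and 11.87 and 12.51 in untreated and 13.75 and 14.82 in treated mutant cells. Untreated mutant cells were therefore the lowest condition. The levels of treated mutant cells overlapped those of treated wild type cells, with a difference of 0.62 (SE 0.51, limma adjusted p = 0.767).

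**Figure D3:**
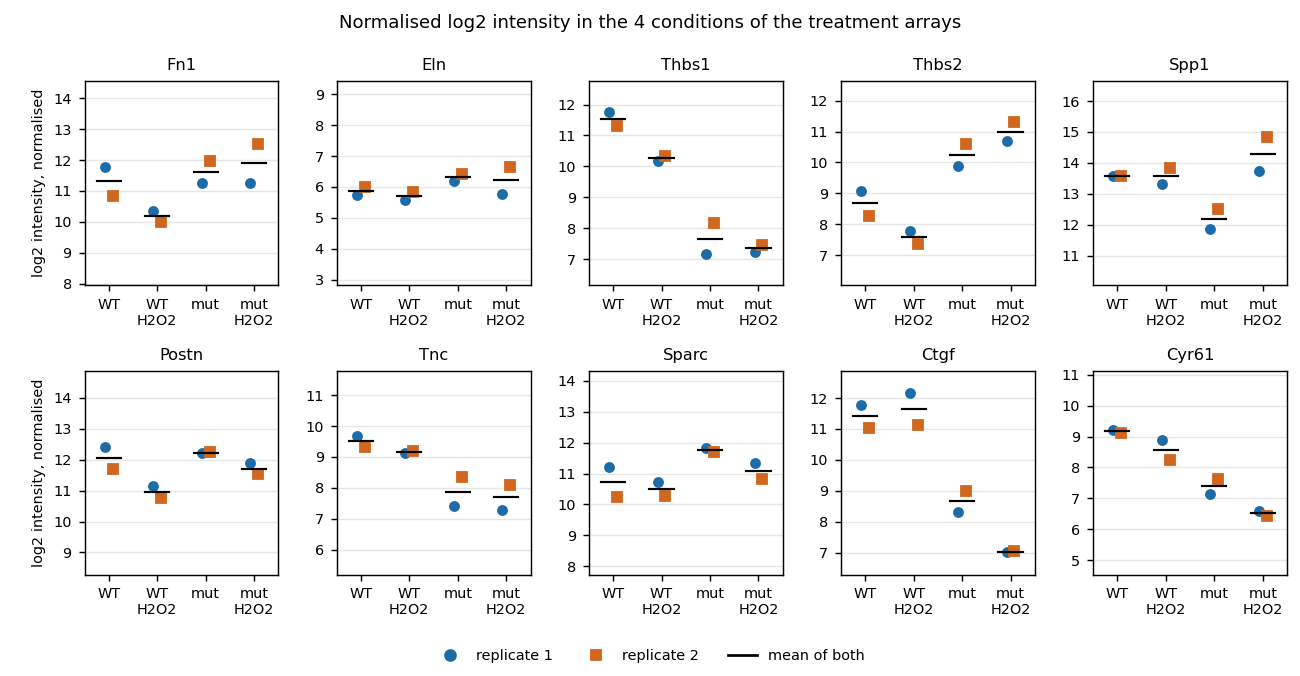
Normalized log2 intensity (vertical axis, the same span of 6.6 in each panel) of the brightest probe of each gene in untreated and H2O2-treated wild type (WT) and mutant (mut) cells on the 4 treatment arrays, marked spots kept; circles and squares are replicates 1 and 2 and bars their means. Ctgf, Thbs1, Tnc and Cyr61 are lower in both mutant conditions than in both wild type conditions, Thbs2 is higher, and Spp1 is lowest in untreated mutant cells.

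Periostin, which promotes the crosslinking of collagen and is made by fibroblasts of skin and bone surfaces, was lower in treated cells on all 4 arrays. Postn (A_51_P489192, NM_015784) had ratios of -1.23 and -0.94 in wild type cells and of -0.31 and -0.72 (marked) in mutant cells, although with arrays only centred on their median, in place of loess, the mutant value was 1.02. The fitted wild type change was -1.09 (SE 0.19, n = 2, unadjusted p = 0.00189, limma adjusted p = 0.0664), which passed with the marked spots of other probes and arrays kept (limma adjusted p = 0.039). Between genotypes its ratios were 0.17 and 0.14 (marked), and the fitted difference of 0.17, from replicate 3 alone, had a 95% interval from -0.50 to 0.85.

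Tenascin C, an anti-adhesive glycoprotein of embryonic and healing tissue, was lower in the mutant. Tnc (A_51_P291438, NM_011607) had genotype ratios of -2.76 and -2.13, neither marked, and was called at -2.45 (SE 0.21, n = 2, limma adjusted p = 0.0019), or 5.45-fold lower. On the Cy3 channels the difference was -1.91 (SE 0.57, unadjusted p = 0.00637, limma adjusted p = 0.277). With H2O2 its 4 ratios lay between -0.55 and -0.11, and neither change was called. The other 2 Tnc probes were dim, with Cy5 not well above background on either genotype array. For A_52_P278035, matched to a cDNA of alternatively used fibronectin type III repeats (AJ236880), the ratios were -1.16 and -3.90. They give a bound of at least 1.39-fold lower in the mutant (limma adjusted p = 0.0197). The -3.90, on genotype replicate 4, rests on a net Cy5 intensity of 0.067, and Feature Extraction gave -0.78 for that spot. The call of this probe therefore leans on a signal at background. A_52_P355169 had -1.43 and 0.14 and was not called.

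SPARC, which binds collagen and calcium and aids collagen assembly, was higher in the mutant by both of its probes. A_51_P431087 (NM_009242) had genotype ratios of 1.29 and 1.23 and a fitted difference of 1.26 (SE 0.19, n = 2, limma adjusted p = 0.00905), or 2.40-fold. A_52_P101852 had 0.98 (marked) and 1.44, and was called on replicate 4 at 1.44 (SE 0.26, limma adjusted p = 0.0199). On the genotype arrays alone neither probe was called (limma adjusted p = 0.0632 and 0.141). After treatment A_52_P101852 was below 0 on all 4 arrays, at -0.62 and -0.42 in wild type and -0.74 and -0.99 (marked) in mutant cells, while A_51_P431087 had -0.49 and 0.02 in wild type and -0.47 and -0.86 (marked) in mutant cells. None of these changes was called, and with median centring the values of A_51_P431087 were 0.20 and 0.85.

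The Cy3 channels gave a second measurement of the untreated genotypes, from arrays other than those of replicates 3 and 4. limma called 2 of the 15 member probes tested there, Thbs1 (A_52_P337092) and Ctgf, with 0.417% of all probes. At an unadjusted p under 0.05 it called 5, all lower in the mutant (those 2, Spp1, Tnc and Cyr61), with 10% of all probes. With marked spots kept, 3 of 18 were called, 2 of Thbs1 and that of Ctgf, with 0.733% of all probes. The member probe called on the ratio arrays that differed in sign was the dim A_52_P278035 of Tnc, at 0.11 on the Cy3 channels with an SE of 0.43. Thbs2 and both Sparc probes were higher in the mutant on both kinds of array. On the Cy5 channels, which compare treated cells, 6 of 15 member probes had an unadjusted p under 0.05, with 8.96% of all probes, Fn1 (A_52_P299974) and Thbs2 higher and Thbs1 (A_52_P337092), Tnc, Ctgf and Cyr61 lower. For A_52_P337092 treated mutant cells were not well above background, and no fold can be given. With marked spots kept, 3 of 18 were called there, Thbs1 (A_52_P363951, at -2.90) and Ctgf lower and Thbs2 higher, with 0.299% of all probes. The Thbs1 probe A_52_P337086 lay the other way, at 2.07 (SE 0.44, unadjusted p = 0.000698, limma adjusted p = 0.123). These comparisons are made between arrays, so array and genotype cannot be told apart within them. Without the marked spots, the Ctgf and Thbs2 values of both channels rest on 1 array of each genotype. Those of Tnc (A_51_P291438) and Cyr61 rest on 1 wild type array, and those of both Sparc probes on 1 mutant array.

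**Figure D4:**
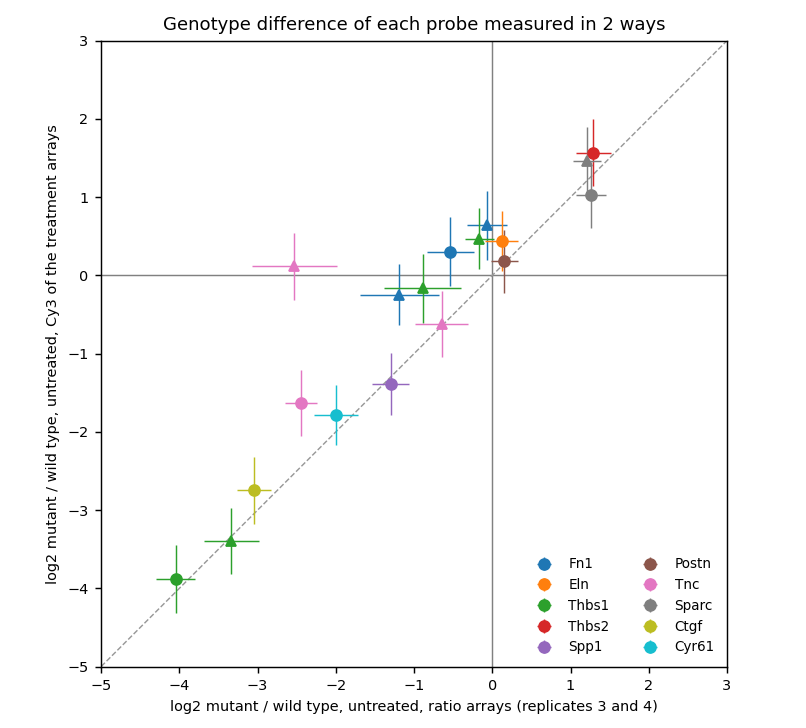
Log2 difference between untreated mutant and wild type cells for each of the 18 member probes on the ratio arrays of replicates 3 and 4 (horizontal axis) and on the Cy3 channels of the treatment arrays (vertical axis), marked spots kept; circles are the brightest probe of a gene, triangles its other probes, bars standard errors and the dashed line equal values. In 14 of the 18 probes both values have the same sign, and the dim Tnc probe at -2.53 and 0.11 lies farthest from the line.

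Whether the genotypes responded differently to H2O2 was tested by the contrast of both treatment changes. limma called none of 15 member probes and 0% of all probes. At an unadjusted p under 0.05 it called 5, with 5.99% of all probes. Of these, Thbs1 (A_52_P337092) differed by 2.32 (SE 0.34, limma adjusted p = 0.432), Thbs2 by 2.11 (SE 0.48, limma adjusted p = 0.660), Spp1 by 2.11 (SE 0.30, limma adjusted p = 0.392) and Fn1 (A_52_P299974) by 1.02 (SE 0.37, limma adjusted p = 0.801), all with the higher response in mutant cells. Ctgf differed by -1.39 (SE 0.41, limma adjusted p = 0.772), with the lower response in mutant cells. In the fit of the 4 treatment arrays alone 5 of 15 were called, with 1.93% of all probes: Spp1, Thbs1 (A_52_P337092), Thbs2, Ctgf and the Fn1 probe A_52_P11817 (limma adjusted p = 0.00213, 0.00292, 0.0117, 0.0492 and 0.027), whereas Fn1 A_52_P299974 was not (limma adjusted p = 0.0741). The values of Thbs1 A_52_P337092 in this contrast rest on treated mutant cells that were not well above its background, so its size is uncertain. Those of Thbs2 and Ctgf rest on 1 array of each genotype, and those of Fn1 A_52_P11817 on 1 wild type array. With marked spots kept and all 6 arrays fitted, 0 of 18 were called and 0% of all probes.

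Other matricellular genes, from a list of 30 of which 28 were on the array by name, also differed between untreated genotypes. Of the 28, 10 were called higher in the mutant and 2 lower, with a median of 0.27 over the list, where 10.2% of all probes were called higher and 9.76% lower. Tgfbi, which encodes a collagen-binding protein induced by TGF-beta, was higher by 3.91 (SE 0.27, limma adjusted p = 0.00198), Smoc2 by 3.15 (SE 0.43, limma adjusted p = 0.00464) and Sparcl1, the nearest relative of Sparc, by 2.66 (SE 0.22, limma adjusted p = 0.00102). The cartilage matrilin Matn1 was lower, at -2.67 (SE 0.43, limma adjusted p = 0.0106), with its Cy5 well above background on 1 of the 2 arrays. A further thrombospondin, Thbs4, was at least 2.70-fold lower (limma adjusted p = 0.00145), its Cy5 not being well above background, while Thbs3 was higher by 1.57 (SE 0.20, limma adjusted p = 0.00364). The thrombospondin genes thus fell on both sides, Thbs1 and Thbs4 lower and Thbs2 and Thbs3 higher. On the Cy3 channels 2 of the list were called higher, Tgfbi at 2.97 and Smoc2 at 2.36 (limma adjusted p = 0.0266 and 0.0452), and 1 lower, Thbs4, at least 4.63-fold (limma adjusted p = 0.031 with marked spots kept). On the Cy5 channels Tgfbi, at 4.21, and Sparcl1, at 2.33, were called higher in the mutant (limma adjusted p = 0.0094 and 0.0357). None of the list was called in treated cells of either genotype. Closest to the threshold were Thbs4 at -1.35 and Matn2 at -1.25 in wild type cells (limma adjusted p = 0.0509 and 0.0527), and Fstl1 at -0.91 and Wisp2 at 0.64 in mutant cells (limma adjusted p = 0.221 and 0.267).

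Elastic fibre genes were measured beside elastin, as fibrillins, LTBPs, fibulins, emilins, MFAPs and lysyl oxidases, 21 genes in all. Between untreated genotypes 2 were called higher and 5 lower, with a median of -0.25, beside the same 10.2% and 9.76% of all probes. Emilin2 was higher in the mutant by 3.22 (SE 0.17, limma adjusted p = 0.000653). Ltbp1, which tethers latent TGF-beta to the matrix, was lower at -3.07 (SE 0.22, limma adjusted p = 0.00125), Mfap4 was lower at -2.47 (SE 0.38, limma adjusted p = 0.00943), with its Cy5 well above background on 1 array, and Ltbp2 was lower at -1.79 (SE 0.23, limma adjusted p = 0.00389). These 4 genes were also called on the Cy3 channels, Emilin2 higher and Ltbp1, Ltbp2 and Mfap4 lower, and Emilin2 was called on the Cy5 channels. In treated wild type cells 2 of the list were called, both lower, Loxl2 at -2.20 (SE 0.25, limma adjusted p = 0.0474, or 0.0588 with marked spots kept) and Loxl1 at -0.95 (SE 0.15, limma adjusted p = 0.0487), with a median of -0.68 over the list. Loxl1 and Loxl2 are lysyl oxidases, enzymes that crosslink elastin and collagen. None was called in treated mutant cells, with Ltbp3 at 1.03 and Ltbp2 at 1.17 nearest (limma adjusted p = 0.205 and 0.219).

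Of 17 receptors of the members, integrins and syndecans among them, 1 was called higher in untreated mutant cells and 4 lower, with a median of 0.12, where 19.9% of all probes were called. The integrin chain Itgav, which pairs to bind fibronectin, osteopontin and periostin, was lower at -1.70 (SE 0.17, limma adjusted p = 0.00308). Itga8 was lower at -1.04 and Cd44, a receptor of osteopontin, at -1.02 (limma adjusted p = 0.0157 and 0.012), and Sdc1 at -0.98 (limma adjusted p = 0.0338). None was called on the Cy3 or Cy5 channels or in treated cells. Itgav in treated wild type cells was at -1.63 (SE 0.25, limma adjusted p = 0.0509), and in treated mutant cells Cd44 was at 0.91 and Itgb5 at -0.56 (limma adjusted p = 0.223 and 0.322).

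Pathways that act on the members were read against the same shares, 10.2% of all probes called higher and 9.76% lower. Of 18 genes of the TGF-beta pathway, 1 was called higher and 6 lower in untreated mutant cells, with a median of -0.03. The receptor decoy Bambi was lower at -1.22 (SE 0.17, limma adjusted p = 0.00467), and the ligand Tgfb2 was higher at 1.26 (SE 0.17, limma adjusted p = 0.00429). The inhibitory Smad6 was at least 1.39-fold lower (limma adjusted p = 0.00597), its Cy5 not being well above background.

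Of 17 genes of the YAP and TAZ pathway, 2 were called higher and 6 lower in untreated mutant cells, with a median of -0.33, beside 10.2% and 9.76% of all probes. The targets Amotl2, at -2.31 (SE 0.25, limma adjusted p = 0.00581), and Axl, at -1.83 (SE 0.28, limma adjusted p = 0.0207), were lower, as was the kinase gene Stk4 at -1.19 (SE 0.22, limma adjusted p = 0.0164). F3, which encodes tissue factor, was higher at 1.29 (SE 0.25, limma adjusted p = 0.0256). The kinase gene Lats2 and the factor Tead1 were among the 6 lower. Ankrd1, another target, had no call there, and in treated mutant cells it stood at -1.14 (SE 0.33, limma adjusted p = 0.291).

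Of 13 tested genes of the SRF and MRTF pathway, 1 was called higher and 2 lower in untreated mutant cells, with a median of -0.14, a share near the 19.9% of all probes called. Myl9, a myosin light chain, was higher at 2.01 (SE 0.20, limma adjusted p = 0.00443), and Tpm1 at -1.19 and Srf itself at -1.07 were lower (limma adjusted p = 0.046 and 0.0272). None of the 3 pathway lists had a gene called in treated cells of either genotype.

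**Figure D5:**
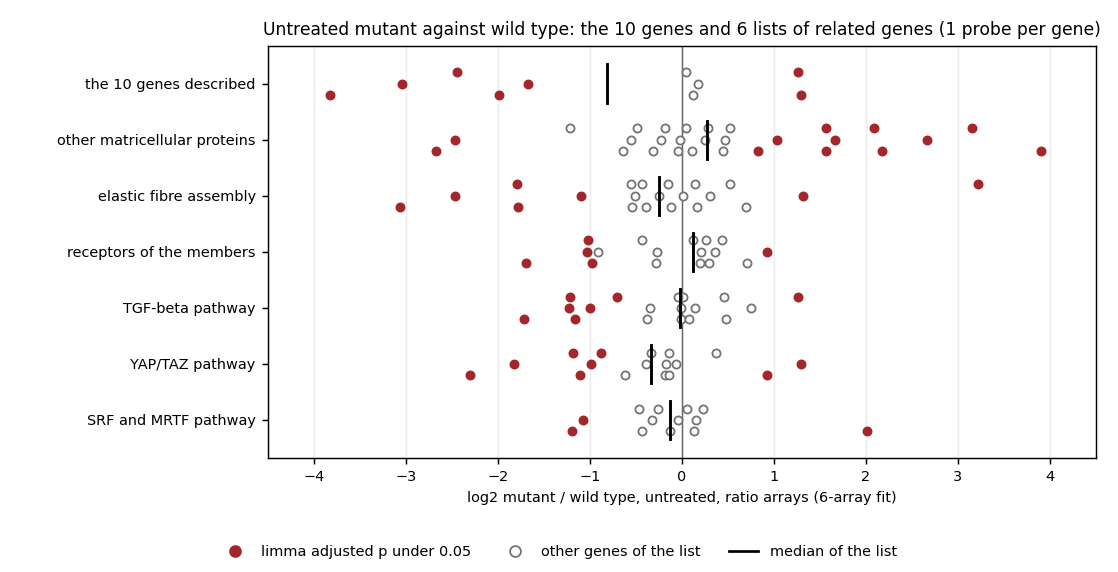
Log2 difference between untreated mutant and wild type cells on the ratio arrays (horizontal axis), 1 probe per gene, for the 10 genes and for 6 lists of related genes; red points have a limma adjusted p under 0.05, open points do not, and the black bar is the median of the row. The 10 genes have 5 called points left of zero and 2 right of it, and the other matricellular proteins have 2 left and 10 right.

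Markers of cell types were measured to see what the cultures held. Of 11 fibroblast markers, between 9 and 11 were well above background in every channel, and their summed level was 62351 to 71101 in untreated wild type and 93934 to 109280 in untreated mutant cells. On the ratio arrays 6 of 10 tested were called higher in the mutant, Dcn by 2.76 and Pdgfra by 2.21 among them, where 10.2% of all probes were called higher. In treated wild type cells the median of 8 tested was -0.99, with 5 lower and 1 higher at an unadjusted p under 0.05 and none called. The 10 macrophage markers, which matter for Spp1, summed to between 833 and 922 in untreated wild type, 994 and 1266 in untreated mutant and 937 and 1257 in treated mutant cells. In treated mutant cells between 3 and 5 of them were well above background, and Cd68, Emr1, Tyrobp, Mrc1 and Lyzs were not on either array. In treated wild type cells between 4 and 7 were, and Emr1, Mrc1 and Lyzs were not on either array. Mrc1 was called between untreated genotypes at 1.58. Osteoblast and chondrocyte markers summed to between 11130 and 12448 in untreated wild type, 4535 and 6432 in treated wild type, 12384 and 18121 in untreated mutant and 10385 and 16358 in treated mutant cells. Of 9, 1 was called higher between untreated genotypes, Col2a1 at 0.96, and 2 lower, Sox9 at -1.68 and Col10a1 at -0.97. The bone marker Ibsp was not well above background in treated cells of either genotype, nor in either channel of the genotype arrays. The 5 smooth muscle and myofibroblast markers, which matter for Ctgf and Tnc, were well above background on every array. In wild type cells they summed to between 17235 and 22951 untreated and 9374 and 10394 treated. In mutant cells the sums were 17214 to 18630 untreated and 10863 to 12224 treated. On the genotype arrays they were 14876 to 28656 in wild type and 11004 to 12393 in mutant cells. On the treatment arrays the untreated sums are from Cy3 and the treated sums from Cy5. By the log2 ratios the median was -0.14 over 4 tested in treated wild type and -0.33 over 5 in treated mutant cells. None of these was called, and 0 and 1 had an unadjusted p under 0.05 by limma. Between untreated genotypes none of 4 tested was called, and 1 was lower at an unadjusted p under 0.05. Of the 9 skeletal muscle markers 1 was called (Tnnt1, at 1.15), and none of 6 endothelial and 2 epithelial markers, by limma's adjusted p, of which 0 and 1 had an unadjusted p under 0.05. Of 5 neural markers 1 was called higher (Tubb3, at 0.78). Between untreated genotypes Sparc and Thbs2 were thus higher in the mutant, as were the 6 called fibroblast markers. Thbs1, Ctgf, Tnc, Cyr61 and Spp1 were lower there, and Fn1, Eln and Postn were not called. In treated mutant cells Thbs2 stood at 0.81, while the median of 10 fibroblast markers was -0.09. The lower Thbs1, Fn1, Postn and Thbs2 values of treated wild type cells stood beside lower ratios of fibroblast markers and a lower osteoblast and chondrocyte sum. The summed fibroblast level there, 79815 to 90077, was however above that of untreated wild type cells. The part of culture makeup in these values was not tested.

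Likeness over the 6 ratios was measured as Euclidean distance to each of 17747 other probes with a mean log2 intensity over 6, marked spots kept. Nearest to Fn1 were Emilin1, Lrp1 and Grp58, at distances of 0.57, 0.68 and 0.74. Thbs1 was nearest to Ptgis (0.94), 2510015F01Rik and Ptn, and Thbs2 to Fbn1 (0.70), Csrp2 and Ephx1. Ctgf had no near neighbour, with Ctla2a, Cxcl12 and Ctla2b at 1.46, 1.50 and 1.77. Spp1 was nearest to Arhgap6 (1.04), Ccng1 and 1100001I19Rik, and Sparc to 2310006J04Rik (0.41), Slc35b1 and 1110060O18Rik. Postn, Tnc, Cyr61 and Eln were nearest to TC1073178 (0.34), Rars (0.60), Cdc25a (0.62) and AI605772 (0.23). The 6 arrays share 3 comparisons, so these distances describe patterns over few points.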

How the data were processed

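The authors scanned the arrays and extracted spots with Agilent's Feature Extraction software, and deposited, array by array, spot intensity (mean signal and local background, both dyes), quality flags and that software's own log10 ratio. The authors also deposited a matrix of log2 values, Cy5 relative to Cy3, normalized with limma by the submitters' processing notes, and its columns correlated with the ratios computed here with r of at least 0.999. A genome build is not given in the sources used here, so array probes carry no coordinates. RNA is total by the labels and cytoplasmic by the study's methods.

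From the intensities, the local background median was subtracted and within-array loess was applied with limma 3.58.1 in R 4.3.3. Control spots had no weight. Outlier-marked spots were dropped and saturated ones were not, and a probe's repeated spots were averaged. All 6 arrays were fitted together by lmFit and eBayes with 1 coefficient per comparison, p-values were two-sided, and calls used an adjusted p under 0.05 (Benjamini-Hochberg over every non-control probe that could be fitted). Single channels were compared after loess and Aquantile normalization. At most 2 arrays a comparison limit the precision. Plots used Python 3.11.15, pandas 2.3.3 and matplotlib 3.10.9. The fits were tested on simulated arrays with changed probes.

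The members, the gene lists and the tests were chosen with earlier results of these data known. All member probes are named. From each of 6 lists of related genes (1 probe per name, the brightest) called genes were named, at most 4 per comparison with the largest change, or the 2 of lowest p where none was called, and further names were added after their values were seen. A gene that this rule would name is not reported here. The 8 marker lists were treated as a check. The alternatives were keeping marked spots, normexp, median centring, the deposited log ratios, the authors' table, an intensity filter, fits on own arrays, a replicate block and leaving out each array.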

Additional observations from a re-analysis of the deposited data

Results flagged for a closer look

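For 4 probes, both wild type arrays moved one way after H2O2 and both mutant arrays the other way, with marked spots kept, as did 11.9% of all 41146 probes. Thbs2 (A_51_P461877) had log2 ratios of -1.30 and -0.90 in wild type and 0.81 and 0.69 in mutant cells, a difference of 1.85 (SE 0.31, unadjusted p = 0.000511, limma adjusted p = 0.275). Ctgf (A_51_P157042) ran the opposite way, with 0.36 and 0.09 in wild type and -1.30 and -1.96 in mutant cells, a difference of -1.85 (SE 0.31, unadjusted p = 0.000473, limma adjusted p = 0.267). For Thbs1 (A_52_P337086) the difference was 2.24 (SE 0.70, unadjusted p = 0.0141, limma adjusted p = 0.621) and for Fn1 (A_52_P299974) it was 1.02 (SE 0.37, unadjusted p = 0.0263, limma adjusted p = 0.695), with 1 mutant ratio at 0.0077, which was -0.058 among the Feature Extraction ratios. None of the 4 passed the adjusted threshold, and 3 of the 4 rest in part on marked spots.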

How the results depend on the processing

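The count of member probes called between untreated genotypes, 10, was 8 to 10 on leaving out each array in turn, 3 with the deposited Feature Extraction ratios and 5 on the genotype arrays alone. In treated wild type cells the count of 1 became 2 with marked spots kept, 2 with normexp, 0 with median centring, 0 with the Feature Extraction ratios, 2 with the authors' table and 6 on its own arrays, and ranged from 0 to 6 on leaving out an array. In treated mutant cells the count of 0 became 2 with median centring and 5 on its own arrays, with a range of 0 to 5 on leaving out an array. For the difference in response the count of 0 became 5 on the treatment arrays alone, with a range of 0 to 5. On the Cy3 channels the count of 2 became 0 with normexp, 1 with quantile normalization and 3 with marked spots kept, with a range of 0 to 3. On the Cy5 channels the count of 1 became 3 with marked spots kept, 0 with normexp and 0 with quantile normalization, with a range of 0 to 2. On own arrays the shares of all probes called were 3.74% between genotypes, 26.5% in treated wild type and 12.1% in treated mutant cells. For the difference in response the share was 1.93% on the treatment arrays. Most other alternatives have no such share here, so their counts are not read as results about the members. The causes were not tested.

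The replicate numbers were not shown to pair the arrays, since deviations of same-numbered treatment arrays correlated with r = 0.12 over 2 pairs only. With a replicate block the counts were 0 in treated wild type cells, 0 in treated mutant cells, 7 between untreated genotypes, 0 for the difference in response, 1 on the Cy3 and 1 on the Cy5 channels, and the Sparc difference in response was 0.020. A slide or scan block was not run, because each slide held 1 array.

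Under the alternatives, 526 values of single genes kept direction and side of the threshold, 40 moved past it, 20 lost it and 38 changed sign. With median centring, values in treated wild type cells were 0.39 for Spp1, 0.20 for Sparc and 0.19 for Cyr61, those in treated mutant cells were 0.11 for Eln, 0.24 for Thbs1, 1.02 for Postn, 0.40 for Tnc and 0.85 for Sparc, and the Sparc difference in response was 0.65. Normexp gave 0.079 for Spp1 in treated wild type cells and -0.015 for Fn1 between genotypes. The Feature Extraction ratios gave -0.012 for Ctgf in treated wild type cells and 0 for the Eln difference in response. Marked spots kept gave -0.54 for Fn1 between genotypes and 0.18 for Postn on the Cy3 channels, and the authors' table gave -0.54 for Fn1. Other probes of the gene gave -1.19 and -0.07 for Fn1 and 0.16 for Thbs1 between genotypes, 0.24 for Tnc in treated wild type cells, 0.24 for Thbs1 and 0.32 for Tnc in treated mutant cells, and 0.023 and 0.11 for Tnc on the Cy3 and Cy5 channels.

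On leaving out an array, values ranged from -0.26 to 0.24 for Spp1 and from -0.49 to 0.023 for Sparc in treated wild type cells, from -0.43 to 0.23 for Eln and from -0.69 to 0.091 for Thbs1 in treated mutant cells, and from -0.092 to 0.33 for Eln between genotypes. For the difference in response they ranged from -0.26 to 0.39 for Eln and from -0.49 to 0.020 for Sparc. In Cy3 they ranged from -0.45 to 0.57 for Eln and from -0.65 to 0.006 for Postn, and on the Cy5 channels from -0.43 to 0.68 for Eln and from -0.14 to 1.38 for Spp1. Where an array was left out, the lone array was assumed to vary like the others. Low Cy5 signal limits the dim Thbs1 and Tnc probes to bounds.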

Other observations

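A probe that does not carry a member name, A_51_P117890 (AK014660), is described in the array files as a cDNA of connective tissue growth factor. It was dim, with Cy5 not well above background on any array. Its log2 ratios were 0.05 and -0.19 in treated wild type cells, -0.35 and -0.23 in treated mutant cells and -0.13 and -0.47 between genotypes, and its fitted genotype difference was -0.30 (SE 0.17, limma adjusted p = 0.244). The Ctgf probe A_51_P157042 had -3.28 and -2.82 between genotypes.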
